A study of Mus musculus with 6 samples.

Results

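Type I interferon-stimulated genes were followed in gastrocnemius, a calf muscle, of tumour-bearing mice. The 9 genes examined were Irf7, Isg15, Usp18, Ifit1, Ifit3, Oasl2, Rsad2, Bst2 and Ifi44, taken by name from a table of 57010 genes. That rule uses no measured value, though the genes were chosen with earlier results of these data known. Each stood at 1 TPM or more in 5 or all 6 of the libraries, and all 9 were among the 11375 genes tested. TPM is a length-corrected share of all transcripts with the same total in every library, so it can be compared between genes but keeps no sequencing depth.

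RNA sequencing was done on muscle of NSG mice (NOD/SCID/IL2Rγ-null), an immunodeficient strain without mature T, B and NK cells. All mice carried a subcutaneous xenograft of MDA-MB-231, a human breast cancer line, with Rab27a, a GTPase of vesicle secretion, knocked down in the tumour cells. For the radiotherapy group (n = 3), 10 Gy was given once to the tumour when it had grown to a volume near 800 mm3, and the gastrocnemius opposite to it was collected after 3 days. The control group (n = 3) carried unirradiated tumours of the same knockdown line, and no group without the knockdown was compared here. No tumour volume or day of collection is recorded here for the controls. The age and sex of the mice and the knockdown's extent are not in the labels, and the labels do not say that replicates are separate mice, so p-values measure only the spread between these samples. The tissue label fits its markers: 6 fast-muscle genes, among them Ckm and Acta1, together held 50925 to 120217 TPM in each library.

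Interferon-stimulated genes are the readout of type I interferon signalling. Interferon-α and -β bind the receptor chains IFNAR1 and IFNAR2, whose kinases JAK1 and TYK2 phosphorylate STAT proteins. STAT2 and IRF9 are parts of the resulting complex, ISGF3, which binds the interferon-stimulated response element in target promoters. In muscle these genes are low at rest and are known for their high level in interferon-driven myopathies such as dermatomyositis.

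The element's core can be read in the promoters of several of the genes. The letters GAAANNGAAA were searched on both strands (TTTCNNTTTC on the other), overlaps allowed, in RefSeq promoter windows of GRCm38.p6 that run from 250 bases before to 50 bases after each gene's start. A window was found for 8 of the 9 genes, all but Usp18, and 5 of those 8 held a match, against 3.44% of the 32851 windows in the table. Of the windows of other interferon-stimulated genes, 20 of 55 held one (36.4%). The stretch from base −160 to base −41 relative to the start is shown for the 5 genes, 5′ to 3′ on the gene's strand, because every match in them lies there; capitals mark the matched letters.
Isg15, chr4:156200859-156200978, minus strand: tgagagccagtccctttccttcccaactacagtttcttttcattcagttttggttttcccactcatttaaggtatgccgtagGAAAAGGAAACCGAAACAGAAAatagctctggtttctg
Bst2, chr8:71537513-71537632, minus strand: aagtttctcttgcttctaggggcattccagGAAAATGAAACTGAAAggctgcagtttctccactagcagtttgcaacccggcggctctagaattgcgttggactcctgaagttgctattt
Ifit1, chr19:34640729-34640848, plus strand: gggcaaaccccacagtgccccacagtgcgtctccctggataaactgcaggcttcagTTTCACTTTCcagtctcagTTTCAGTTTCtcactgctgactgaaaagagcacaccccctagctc
Ifit3, chr19:34583369-34583488, plus strand: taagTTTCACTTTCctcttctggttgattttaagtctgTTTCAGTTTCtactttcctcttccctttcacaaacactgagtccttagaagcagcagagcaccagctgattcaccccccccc
Rsad2, chr12:26456493-26456612, minus strand: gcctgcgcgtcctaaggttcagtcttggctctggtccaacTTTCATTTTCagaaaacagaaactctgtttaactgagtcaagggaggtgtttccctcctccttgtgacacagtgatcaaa
In Isg15 3 matches overlap within 22 bases, in Bst2 2 matches overlap within 16 bases, and Ifit1 and Ifit3 each hold 2 separate matches that have the same letters in both genes. Rsad2 holds 1. These letters are not in the windows of Irf7, Oasl2 and Ifi44, which says nothing of the factors that act there.

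The 9 genes were high and low in the same libraries and did not separate the groups. Control 1 was the highest of the 6 libraries for all 9 genes (17.2% of all tested genes had their highest value there), and control 2 was the lowest for 8 of them (10.4% of all tested genes). The 3 radiotherapy libraries lay between these extremes for those 8 genes. Summed over the 9 genes, the level was 414 TPM in control 1, 45.7 TPM in control 2 and 97.7 TPM in control 3. The same sum was 112, 132 and 93.5 TPM in radiotherapy 1, 2 and 3. The radiotherapy libraries thus held 113 ± 19.5 TPM and the controls 186 ± 200 TPM (mean ± SD, n = 3 each), and the ranges overlapped. In bulk muscle, a change in the number of cells that express a gene and a change in RNA per cell cannot be told apart.

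**Figure D1:**
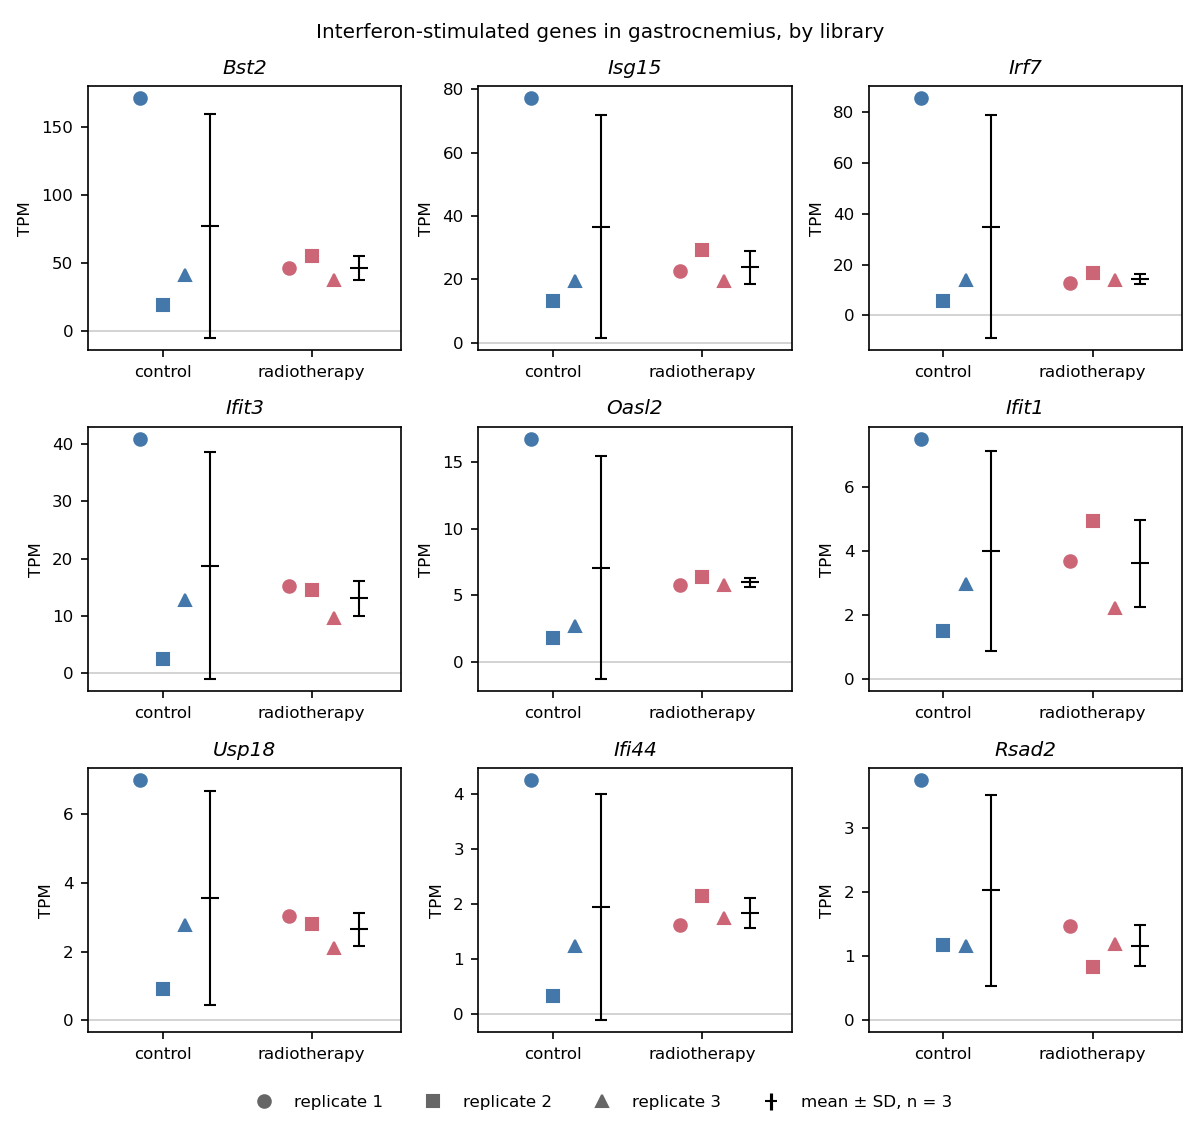
Level of each of the 9 genes (vertical axis, TPM) in the 3 control and 3 radiotherapy libraries, with the mean and SD of each group (n = 3) beside the points. Control 1 is the top point in all 9 panels, and the radiotherapy points sit between control 1 and control 2 in every panel but that of Rsad2.

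Irf7 encodes the transcription factor that amplifies interferon production once it has been induced. Its level was 85.7 TPM in control 1 but 5.52 and 13.7 TPM in controls 2 and 3, and it was 12.5, 16.5 and 13.9 TPM in radiotherapy 1, 2 and 3. Control 1 stood 6.24-fold above the median of the other 5 libraries, the widest such gap among the 9 genes, while the radiotherapy libraries differed from each other by no more than 1.32-fold. On opposite strands, Irf7 shares exon sequence with Phrf1 in the GENCODE M21 annotation. Phrf1 ranged from 7.41 to 13.8 TPM and was lowest in control 1, so it did not follow Irf7.

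Isg15 and Usp18 encode a pair with opposed actions: ISG15 is a ubiquitin-like protein that is joined to other proteins, and USP18 removes it and also restrains signalling at the receptor. Isg15 levels were 77.3, 13.2 and 19.6 TPM for controls 1, 2 and 3, against 22.7, 29.4 and 19.4 TPM for radiotherapy 1, 2 and 3. Usp18 had 6.98, 0.91 and 2.76 TPM in the controls and 3.04, 2.79 and 2.11 TPM in the radiotherapy libraries. Both genes were highest in control 1 and lowest in control 2, and for both the radiotherapy values overlapped that of control 3. The enzymes that load ISG15 onto its targets showed part of this pattern. Uba7, the activating enzyme, had 8.14, 2 and 3.79 TPM in the controls and 5.27, 4.44 and 7.03 TPM after radiotherapy. Ube2l6, the conjugating enzyme, had 17.8, 9 and 5.18 TPM in the controls and 6.14, 5.62 and 6.64 TPM after radiotherapy. Control 1 was highest for both enzymes, but for Ube2l6 control 2 was second.

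Ifit1 and Ifit3 encode partner proteins that bind viral RNA with foreign 5′ ends. Ifit3 went from 40.9 TPM in control 1 to 2.60 TPM in control 2, a 15.7-fold range within the control group, with 12.9 TPM in control 3. Its radiotherapy values were 15.2, 14.5 and 9.59 TPM. Ifit3 has a close paralog, Ifit3b, so the counting could have divided reads between them. Ifit3b itself had 6.93, 0.63 and 2.46 TPM in the controls and 2.79, 2.98 and 1.71 TPM after radiotherapy. The libraries stood in nearly the same order for both paralogs, with radiotherapy 1 and 2 exchanging places. Ifit1 had 7.48, 1.52 and 2.98 TPM in the controls and 3.68, 4.92 and 2.22 TPM in the radiotherapy libraries. It showed the smallest gap of the 9 between control 1 and the median of the others, 2.51-fold.

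Oasl2 belongs to the oligoadenylate synthetase family, which senses double-stranded RNA. Its radiotherapy values were the most alike of any of the 9 genes, at 5.76, 6.34 and 5.78 TPM, while the controls held 16.7, 1.80 and 2.65 TPM. The radiotherapy libraries were therefore all above controls 2 and 3 and all below control 1. Ifi44, an interferon-induced gene of antiviral action, showed the same arrangement. It had 4.25, 0.32 and 1.24 TPM in the controls and 1.62, 2.14 and 1.74 TPM after radiotherapy.

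Bst2 encodes tetherin, a membrane protein that holds budding virus particles at the cell surface. It was the most abundant of the 9 genes, with 171 TPM in control 1, 18.7 TPM in control 2 and 40.7 TPM in control 3. The radiotherapy libraries held 46.0, 55.0 and 37.6 TPM. Rsad2 encodes viperin, which makes a chain-terminating nucleotide. It was the least abundant and the exception to the common order. It had 3.75, 1.18 and 1.16 TPM in the controls and 1.48, 0.83 and 1.19 TPM after radiotherapy, so control 1 stood alone and the other 5 libraries were mixed.

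The comparison of radiotherapy with control asked whether irradiating the distant tumour altered these genes in the muscle. In limma, fitted on log2(TPM + 1) over all 11375 tested genes, 0 of the 9 genes passed an adjusted p of 0.05, and 0 of the 9 had an unadjusted p under 0.05. Over all genes the shares were 0% at the adjusted threshold and 3.82% at the unadjusted one. The radiotherapy values did not lie wholly on one side of the control values for any of the 9, against 9.24% of all tested genes. Log2 fold changes, radiotherapy minus control, ran from −0.41 for Irf7 to 0.30 for Oasl2, with 5 negative (67.9% of all tested genes) and 4 positive (32.1%). Their median was −0.089, beside −0.11 over all genes tested. Under median-of-ratios scaling it was 0.023, beside −0.0014 over all genes. The intervals were wide: Irf7 had a 95% interval from −2.14 to 1.32 (SE 0.77, limma adjusted p = 0.982), Isg15 one from −1.46 to 1.03 (SE 0.55) and Oasl2 one from −1.04 to 1.63 (SE 0.59). Changes of more than 2-fold in either direction thus lie inside these intervals, and inside those of Ifit3 and Bst2. The intervals of Ifit1 (−0.95 to 0.99), Usp18 (−1.10 to 0.92), Ifi44 (−0.79 to 1.15) and Rsad2 (−1.11 to 0.33) do not reach that far in both directions. That limit depends on the 1 added to each TPM. With 0.1 added instead, the intervals of Ifit1 (−1.17 to 1.31), Usp18 (−1.41 to 1.39) and Ifi44 (−1.15 to 2.17) did reach that far. The interval of Rsad2 (−1.70 to 0.56) still did not. Changes of 2-fold are therefore not excluded for these low genes.

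Single control libraries set the direction. Without control 1, 8 of the 9 log2 fold changes were positive (35% of all genes tested in that fit), with a median of 0.64 beside −0.12 over all genes. Without control 2, 0 of the 9 were positive (31.5% of all genes in that fit), with a median of −0.60 beside −0.13 over all genes. None of the 9 passed in either fit. An unadjusted limma p under 0.05 was found for 2 of the 9 without control 1 (5.28% of all genes in that fit) and for 0 without control 2 (2.62%). In the fit without control 1, limma called 6 of 11079 genes (0.0542%), all of them small nucleolar RNA or predicted genes. The value nearest the threshold among the 9 in that fit was that of Oasl2, 1.12 (SE 0.30, 95% interval 0.48 to 1.77, limma adjusted p = 0.528). Ifi44 followed at 0.72 (SE 0.27, limma adjusted p = 0.905). These 2 genes were also the only ones of the 9 whose radiotherapy values all lay above controls 2 and 3, against 5.56% of all tested genes. Control 1 was the highest library for all 9 genes, so leaving it out raises each of these values. The interval given for Oasl2 is therefore a description of that fit only.

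**Figure D2:**
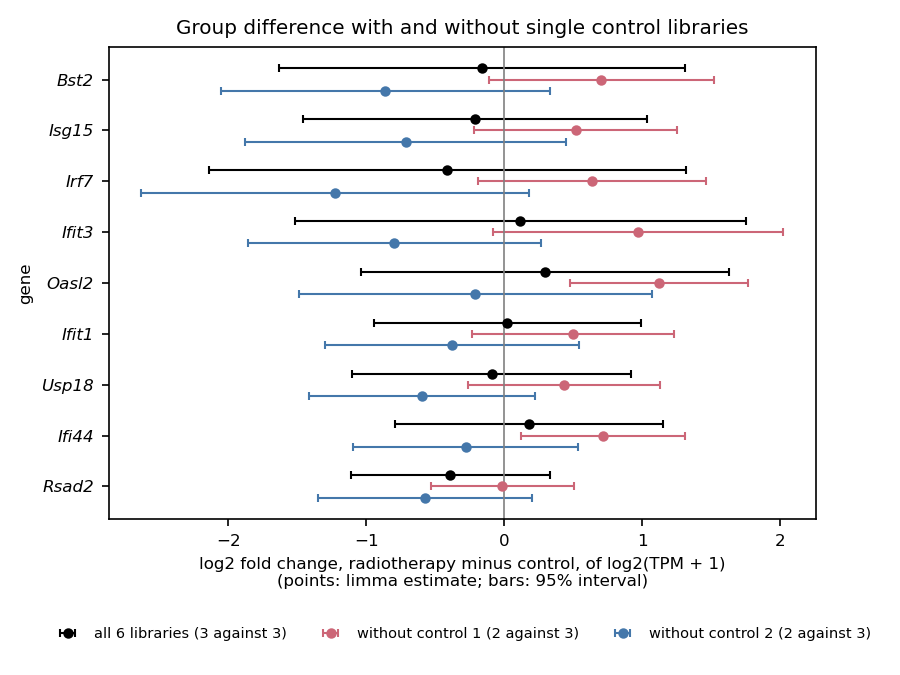
Log2 fold change of each gene, radiotherapy minus control, on the log2(TPM + 1) scale (horizontal axis), as limma estimates with 95% intervals from all 6 libraries, without control 1 and without control 2. The estimates without control 1 lie above 0 for every gene but Rsad2 (−0.013), and those without control 2 lie below 0 for all 9.

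The controls were far apart from each other and the radiotherapy libraries close together. The highest control exceeded the lowest by a median of 9.17-fold over the 9 genes (3.23-fold for Rsad2 to 15.7-fold for Ifit3), while the median over all tested genes was 1.47-fold. Within the radiotherapy group the corresponding median was 1.46-fold over the 9 genes (1.10-fold for Oasl2 to 2.22-fold for Ifit1), beside 1.70-fold over all tested genes. Control 1 was at least 2-fold above the next highest library for 7 of the 9 genes, all but Ifit1 and Ifi44, a gap that 1.58% of all tested genes showed. Whether the groups differ in their spread was not tested.

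The wider family of interferon-stimulated genes was also highest in control 1, but its lowest library varied. Of 52 further genes looked up, 43 passed the expression filter, and control 1 was the highest library for 38 of them. The exceptions were Ifi27, highest in radiotherapy 1, and Trim25, Ifi35, Helz2 and Ifitm2, highest in radiotherapy 3. The lowest library was control 2 for 18 of the 43 and control 3 for 20, against 10.4% and 14.4% of all tested genes. By limma 0 of the 43 passed and 0 had an unadjusted p under 0.05, with 19 positive and 24 negative values and a median of −0.021; under median-of-ratios scaling the split was 29 positive to 14 negative. The most abundant, Ifi27l2a, had 614, 127 and 77.9 TPM in the controls and 487, 148 and 153 TPM after radiotherapy. Control 1 and radiotherapy 1 were both high for it. The largest fold changes belonged to Isg20, an exonuclease gene (−0.81, SE 0.43), Ifitm1, which blocks virus entry (−0.61, SE 0.59), and Ube2l6 (−0.56, SE 0.38). Ifit2, the third IFIT partner, had 5.06, 0.93 and 0.92 TPM in the controls and 2.12, 1.81 and 1.41 TPM after radiotherapy. The antiviral GTPase gene Mx1 lay under the filter, at 2.82, 0.07 and 0.17 TPM in the controls and 0.22, 1.01 and 0.46 TPM after radiotherapy.

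Controls 2 and 3 were both below all 3 radiotherapy libraries for 23 of the 43 further genes (5.56% of all tested genes). This count leaves out control 1, the highest library for 38 of the 43, which can only raise it. The genes also vary together, so the count describes them and is not a test. In the fit without control 1, 39 of the 52 passed the filter, with 35 positive and 4 negative values, a median of 0.43 and 8 at an unadjusted p under 0.05 (5.28% of all genes in that fit), but 0 passed limma. The gene nearest the threshold there, named after its values were seen, was Zbp1, a sensor of left-handed nucleic acid, at 1.22 (SE 0.27, limma adjusted p = 0.279). It had 14.9, 0.11 and 0.80 TPM in the controls and 1.96, 2.68 and 2.26 TPM after radiotherapy. Without control 3 the direction of the further genes was the opposite, with 3 positive and 39 negative values among 42 (33.4% of all genes in that fit were positive) and a median of −0.25.

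**Figure D3:**
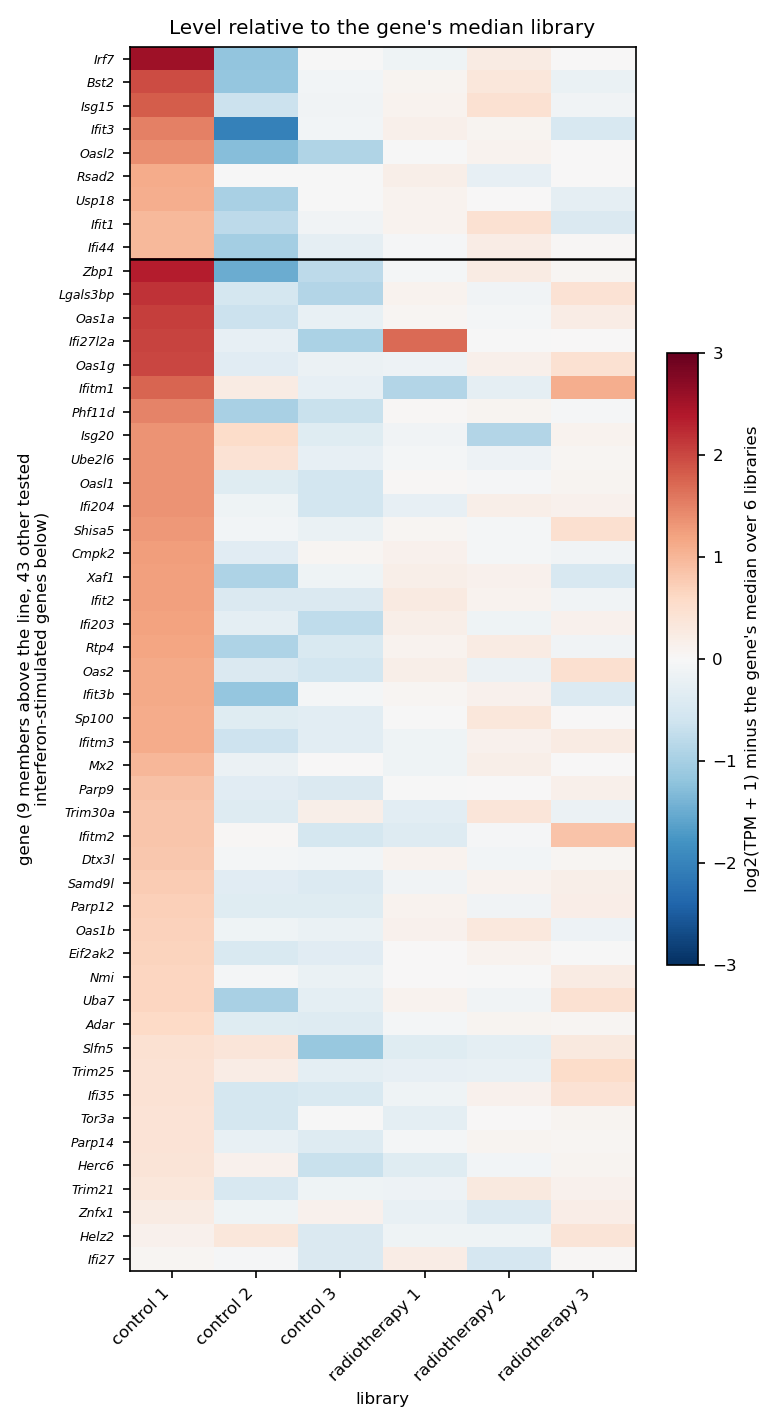
Level of each gene in each library as log2(TPM + 1) minus the gene's median over the 6 libraries (colour scale), with the 9 genes above the line and 43 other tested interferon-stimulated genes below it. The column of control 1 is the highest for 9 of 9 and 38 of 43 genes.

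The interferons themselves, the ligands of the pathway, were listed at 0. This held for all 19 type I and type III interferon genes looked up, Ifnb1 among them, and for the interferon-γ gene Ifng in all 6 libraries; without depth, no detection limit can be set. The receptor chain genes were expressed in every library. Ifnar1 ranged from 3.14 TPM in radiotherapy 2 to 4.81 TPM in radiotherapy 3, and Ifnar2 from 3.42 TPM in control 3 to 11.7 TPM in control 1. Irf9 and Stat2, which are themselves induced by interferon, were highest in control 1 and lowest in control 2. Irf9 had 9.80, 4.22 and 4.89 TPM in the controls and 6.20, 6.62 and 4.98 TPM after radiotherapy. Stat2 gave the largest fold change of this list, 0.40 (SE 0.33), while the kinase genes Jak1, the most abundant member, and Tyk2 gave −0.37 (SE 0.28) and −0.15 (SE 0.21). By limma 0 of these 7 genes passed and 0 had an unadjusted p under 0.05 (median 0.0081). Control 1 was highest for 6 of them, all but Ifnar1.

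Genes that sense nucleic acids or restrain signalling varied in part with other libraries. Of 16 genes of sensors and their adaptors 11 were tested and 0 passed limma or had an unadjusted p under 0.05 (median 0.094). Control 1 was highest for 5 of them: Dhx58, Ifih1, Samhd1, Myd88 and Rigi. The adaptor genes Mavs (−0.32, SE 0.28) and Sting1 (0.22, SE 0.43) and the factor Irf3 (0.22, SE 0.23), the most abundant of the list, were not among them. Of 7 genes that restrain signalling 5 were tested, 0 passed or had an unadjusted p under 0.05, and the median was −0.18. Socs3, an inhibitor of JAK kinases that is also induced by interleukin-6, had 19.0, 4.92 and 2.52 TPM in the controls and 6.05, 10.6 and 24.1 TPM after radiotherapy (0.77, SE 0.64). Its highest library was radiotherapy 3, where the 9 genes were not high.

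Genes listed as leaning more to interferon-γ, with Ifng and its receptor genes among them, were likewise mostly highest in control 1. Of 23 such genes 18 were tested and 0 passed limma or had an unadjusted p under 0.05 (7 positive, 11 negative, median −0.056; 12 positive and 6 negative under median-of-ratios scaling). Control 1 was highest for 17 of the 18, the exception being the receptor gene Ifngr2 (−0.62, SE 0.35). Gbp2, a guanylate-binding protein gene, had 11.4, 2.74 and 3.87 TPM in the controls and 4.16, 4.28 and 4.04 TPM after radiotherapy. The chemokine gene Cxcl10, whose product draws in leukocytes, was below the filter, with 9.43 TPM in control 1 and at most 0.73 TPM in each other library.

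Transcripts of other cells moved with control 1 as well. Macrophage markers (8 genes, control 1 highest for 7) summed to 126 TPM in control 1, 19.1 and 11.8 TPM in controls 2 and 3, and 13.8, 14.0 and 57.7 TPM in radiotherapy 1, 2 and 3. Neutrophil markers (6 genes, control 1 highest for all 6) summed to 1628 TPM in control 1, 282 and 276 TPM in controls 2 and 3, and 150, 155 and 675 TPM after radiotherapy. Markers of fibro-adipogenic progenitors (6 genes, control 1 highest for 5) summed to 703 TPM in control 1 and 223 to 378 TPM in the others; most of this sum is Ly6a, which interferon also induces. Their part in the level of the interferon-stimulated genes was not tested. Radiotherapy 3 was the second library in leukocyte markers, 4.16-fold above the median of the remaining 4 (control 1 left out) for the macrophage sum and 3.13-fold for the neutrophil sum. For the sum of the 9 interferon-stimulated genes radiotherapy 3 stood at 0.892 of that median. The same ratio was 1.41 for the 52 further interferon-stimulated genes, 1.33 for the interferon-γ-leaning list and 1.64 for the sensor and adaptor list. Singly, the 9 genes differed. Radiotherapy 3 lay below control 3 for Ifit1, Ifit3, Isg15, Bst2 and Usp18, and above control 3 for Irf7, Rsad2, Oasl2 and Ifi44.

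Of 8 markers of T, B and NK cells, Cd3e, Cd8a and Ncr1 were listed at 0 in all 6 libraries and the list summed to at most 0.32 TPM. Siglech, which defines plasmacytoid dendritic cells, the main interferon producers of blood, reached no more than 0.10 TPM. The 5 genes of its list summed to 33.9 TPM in control 1 and 6.23 to 12.2 TPM in the other libraries, and most of the sum in control 1 came from Clec4a2 (24.0 TPM, against at most 4.09 TPM elsewhere). Clec4a2 and Irf8 (the latter also counted with the interferon-γ genes) were the 2 of the 5 that were highest in control 1. Endothelial markers (6 genes) summed to 82.2 to 117 TPM, with control 1 highest for 1 of them. The 6 fast-muscle genes summed to 120217, 112928 and 110680 TPM in the controls and to 93177, 50925 and 84707 TPM after radiotherapy, so the sums of the groups did not overlap. Of the 6, 0 passed limma and 5 had an unadjusted p under 0.05 (1 under median-of-ratios scaling), with a median log2 fold change of −0.69. Red blood cell genes (5) summed to 4178, 7203 and 3352 TPM in the controls and to 1618, 930 and 1520 TPM after radiotherapy, again without overlap. Of these 5, 0 passed limma and all 5 had an unadjusted p under 0.05, with a median of −1.81. Adipocyte markers (5 genes) summed to 2242 TPM in radiotherapy 1 and 263 to 892 TPM in the others. The part of these differences in the interferon-stimulated genes was not tested.

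**Figure D4:**
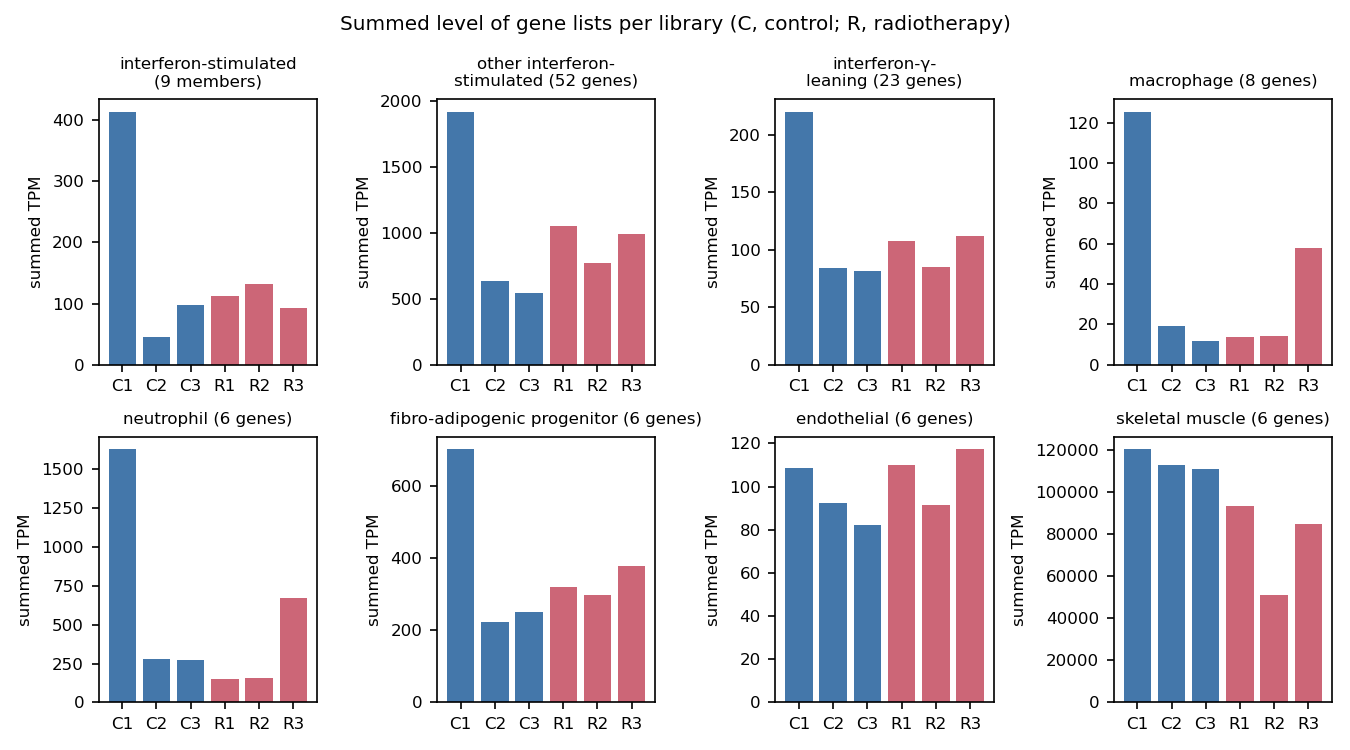
Summed TPM of 8 gene lists in each library (C1 to C3, control; R1 to R3, radiotherapy; each bar is 1 library and each vertical axis starts at 0). Control 1 is the tallest bar for the interferon, macrophage, neutrophil, fibro-adipogenic and skeletal muscle lists, but not for the endothelial list. Radiotherapy 3 is second for macrophage (57.7 TPM) and neutrophil (675 TPM) markers and for the interferon-γ-leaning genes (112 TPM). It is not second for the 9 interferon-stimulated genes (93.5 TPM) or the 52 further ones (993 TPM).

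Among the remaining genes with established names, those closest to the 9 in pattern were found by Pearson's r over the 6 libraries with the mean of the 9 standardised profiles. Of 10161 such genes 48 (0.472%) had r above 0.9, as did 14 of the 43 further interferon-stimulated genes and 9 of the 18 interferon-γ-leaning genes. The closest was Lgals9, the galectin-9 gene (r = 0.98, Spearman's rho = 1, n = 6), with 36.6, 8.85 and 11.8 TPM in the controls and 13.5, 15.4 and 12.8 TPM after radiotherapy. Mrps14, a mitochondrial ribosomal protein gene, came next (r = 0.98, rho = 1) but moved only between 64.7 and 85.0 TPM. Thyn1 (r = 0.97), the membrane protein gene Ly6e (r = 0.97) and the kinase gene Pak1 (r = 0.97) completed the 5. All these values come from the same 6 libraries, of which control 1 and control 2 lie farthest from the middle of the profile. Over the other 4 libraries r was 0.90 for Lgals9, 0.96 for Mrps14, 0.82 for Thyn1, 0.60 for Ly6e and 0.37 for Pak1. Over those 4 libraries r was also above 0.9 for 7 of the 48 genes, for 0 of the 14 further interferon-stimulated genes and for 3 of the 9 interferon-γ-leaning genes.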

How the data were processed

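A single table was deposited by the authors, holding TPM by Ensembl identifier and gene name with 1 column for each sample. Per the submitters' processing notes, HISAT2, StringTie, RSEM and build mm9 are named; no source used here gives versions, the role of each tool, the annotation or strandedness. The deposited columns each sum to 1000000 TPM, so depth, counting intervals and detection limits are unknown, and a larger share of one transcript lowers all others.

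Columns were matched to samples by title. Values became log2(TPM + 1), which understates changes of low genes. The 11375 genes at 1 TPM or more in 3 or more samples were tested with limma 3.58.1 in R 4.3.3 (trend, two-sided, group as the only term; Benjamini-Hochberg over all genes, threshold 0.05), checked on simulated data. No p was adjusted over a list. The genes and lists were chosen with earlier results of these data known. From each list the most abundant gene and those of largest fold change were named (up to 4), with partners and relatives of the 9 genes. Pseudocount, filter, scaling, limma options, replicate block and single libraries were varied. Libraries were checked for duplicates (the closest pair shared 3.35% of its nonzero values). Promoters came from RefSeq (GRCm38.p6). Figures used matplotlib 3.10.9.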

Additional observations from a re-analysis of the deposited data

How the results depend on the processing

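None of the 9 interferon-stimulated genes passed limma under any alternative run (lowest adjusted p 0.528, Oasl2 without control 1). Leaving out 1 library in turn moved the count over all genes between 0 and 6, and the median log2 fold change of the 9 between −0.60 and 0.64. In the same fits the lowest and highest values were −0.38 and 0.50 for Ifit1, −0.80 and 0.97 for Ifit3, −0.71 and 0.52 for Isg15, −1.23 and 0.64 for Irf7, −0.21 and 1.12 for Oasl2, −0.86 and 0.70 for Bst2, −0.60 and 0.44 for Usp18, −0.28 and 0.72 for Ifi44, and −0.58 and −0.013 for Rsad2; for each gene the highest came without control 1. With 1 library left out, a group of 2 takes part of its spread from the other group. Under 9 other settings, 74 of 77 values kept their direction. Usp18 turned to 0.023 with median-of-ratios scaling and 0.051 without the 50 most abundant and the mitochondrial genes, and Bst2 to 0.017 with quantile normalization; the cause was not tested, though the median of all genes moved from −0.11 to −0.0014 with median-of-ratios scaling. The median of the 9 also turned positive. It was 0.023 with median-of-ratios scaling, 0.017 with quantile normalization and 0.051 without the abundant and mitochondrial genes. Mitochondrial genes held 8.93% to 13.7% of TPM in the controls and 15.1% to 22.5% after radiotherapy. The part of that share in these values was not tested. A filter of 5 TPM kept 5 of the 9. The labels number both groups alike but state no pairing, and same-numbered libraries did not deviate together (r = −0.059, 0.024 and −0.11 across genes). With the replicate block, 0 of 11375 genes passed and 0 of the 9, whose median was −0.089.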
